A study of Mus musculus with 6 samples.

Results

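The 42 genes described here encode the enzymes of glycolysis (16 genes, through lactate dehydrogenase), the pentose phosphate pathway (7 genes), and the pyruvate dehydrogenase complex with the tricarboxylic acid (TCA) cycle and its cytosolic counterparts (19 genes). They were chosen by symbol, and all 42 were found among the 14515 genes of the count table. The samples were naive CD8 T cells sorted from spleens of 3 LAIR-1-deficient (Lair1-/-) and 3 wild type (Lair1+/+) mice, with 1 library per mouse and no treatment named in the labels. LAIR-1 is an inhibitory, collagen-binding receptor of leukocytes, and the comparison asks what its loss does to resting cells. Sorting included CD45, CD3 and CD8 as positive markers and absence of CD44, so the cells were chosen for a naive surface phenotype in both genotypes. The labels used here give no age, sex or strain, and do not say which part of Lair1 the allele removes.

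Glycolysis splits glucose into pyruvate in the cytosol, and lactate dehydrogenase interconverts pyruvate and lactate. The pentose phosphate pathway branches off at glucose 6-phosphate and yields NADPH and ribose 5-phosphate. Pyruvate enters the mitochondrial TCA cycle through the pyruvate dehydrogenase complex. Resting naive T cells are known to depend mainly on mitochondrial oxidation, and activated T cells raise glycolytic flux, in part through the transcription factors MYC and HIF-1.

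HIF-1 binds hypoxia response elements with the core ACGTG, and MYC binds E-boxes, of which CACGTG is the canonical form. Ldha had the most signal per length of the glycolytic members, and Tpi1 alone of all members had an unadjusted p under 0.05. Their upstream windows are printed here. Each is the 250 bases before a RefSeq start site (GRCm38.p6), 5′ to 3′ on the gene's strand, with ACGTG or its reverse complement CACGT in capitals.
Ldha, chr7:46845554-46845803, plus strand: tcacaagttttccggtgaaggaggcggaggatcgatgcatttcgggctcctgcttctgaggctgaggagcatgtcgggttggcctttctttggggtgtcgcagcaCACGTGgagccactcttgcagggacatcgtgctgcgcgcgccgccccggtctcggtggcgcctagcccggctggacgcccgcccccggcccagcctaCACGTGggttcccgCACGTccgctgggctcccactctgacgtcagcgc
Tpi1, chr6:124814159-124814408, minus strand: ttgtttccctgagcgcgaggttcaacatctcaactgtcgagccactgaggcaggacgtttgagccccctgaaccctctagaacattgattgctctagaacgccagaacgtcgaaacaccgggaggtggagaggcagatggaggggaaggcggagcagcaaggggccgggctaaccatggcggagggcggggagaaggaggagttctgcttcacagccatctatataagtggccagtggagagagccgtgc
The capitals of Ldha hold CACGTG and a lone core, and the Tpi1 window held 0 cores. Ldha spans chr7:46841475-46855627 and Tpi1 chr6:124810586-124814296 in the GENCODE annotation of the same build. A second RefSeq start of Ldha, with the window chr7:46846832-46847081, also held 0 cores. ACGTG on either strand was in 9 of 27 windows of glycolysis genes (33.3%), 0 of 8 of pentose phosphate genes and 9 of 24 of TCA genes (37.5%), against 16.6% of all 32851 windows. CACGTG, which contains ACGTG, was in 2, 0 and 3 of these windows, against 6.02% of all windows. RefSeq windows were matched for 41 of the 42 genes, and genes with several starts have several windows. A match in letters is not a binding site.

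Library totals were 5519748 to 7296424 counts in LAIR-1-deficient mice and 7974206 to 9187017 counts in wild type mice, so all LAIR-1-deficient libraries were the shallower ones. Lair1 had 2, 1 and 1 counts in LAIR-1-deficient mice 1 to 3 and 58, 32 and 43 counts in wild type mice 1 to 3. Its log2 fold change was -4.58 (SE 0.57, edgeR adjusted p = 0.00255), and it was the only gene called in either direction. Without wild type mouse 1, its highest library, its fold change was -4.26 on the log2 scale (edgeR adjusted p = 0.0592), and limma-voom over all 6 libraries gave an adjusted p of 0.142. The sum of 10 naive CD8 T cell markers, Cd8a and Cd8b1 among them, was 8300 to 8930 CPM (TMM-scaled counts-per-million) in LAIR-1-deficient and 8430 to 8940 CPM in wild type libraries. B cell markers (5 genes) summed to 26.8 to 34.4 CPM in LAIR-1-deficient and 31.4 to 34.5 CPM in wild type libraries. Macrophage and monocyte markers (5 genes) summed to 5.15 to 7.37 CPM in LAIR-1-deficient and 4.59 to 5.68 CPM in wild type libraries, and cycling markers (5 genes) to 7.49 to 14.3 CPM in LAIR-1-deficient and 10.6 to 19.1 CPM in wild type libraries. Erythroid markers, with 3 of 6 listed genes in the table, spanned 26.8 to 141 CPM in LAIR-1-deficient and 34.3 to 168 CPM in wild type libraries. Immediate early genes (7 genes, Nr4a1 among them) stood apart by mouse number, with 4670 CPM in LAIR-1-deficient mouse 1 and 3930 CPM in wild type mouse 1, against 1120 to 1440 CPM in the 4 other libraries. The other lists were low, with CD4 T cell markers (3 genes) at 1.95 to 4.37 CPM in LAIR-1-deficient and 1.09 to 4.26 CPM in wild type libraries and dendritic markers (4 genes) at 0.711 to 2.05 CPM in LAIR-1-deficient and 1.13 to 1.34 CPM in wild type libraries. Neutrophil markers (3 of 4 in the table) spanned 0.137 to 4.46 CPM in LAIR-1-deficient and 0.224 to 4.26 CPM in wild type libraries, and NK cell markers (2 of 3) 0 to 0.273 CPM in LAIR-1-deficient and 0.126 to 0.448 CPM in wild type libraries. No tested marker of any list was called. Of the dendritic, neutrophil and NK cell markers 0 were tested, as their counts were too low, so these lists could give no call. Only 1 erythroid, 2 CD4 T cell and 2 macrophage and monocyte markers were tested. The part of these markers, and of depth, in the results was not tested.

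In RNA from sorted populations, fewer cells of a type and less RNA per cell cannot be told apart.

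No enzyme gene of the 3 pathways was called different between the genotypes. Of the 42 members, 40 passed the filter on low counts (smallest count 10), and edgeR's quasi-likelihood test called 0 higher and 0 lower at a Benjamini-Hochberg adjusted p under 0.05, where 0.0105% of all 9565 genes tested were called. DESeq2 and limma-voom also called 0 members. An unadjusted p under 0.05 was reached by 1 of the 40 members and by 3.25% of all genes tested. The smallest adjusted p among members was 0.9999. Median log2 fold changes, LAIR-1-deficient over wild type, were 0.03 for 14 tested glycolysis genes (8 positive, 6 negative), 0.02 for 7 pentose phosphate genes (5 positive, 2 negative) and 0.01 for 19 TCA genes (11 positive, 8 negative), beside 0.0006 for all genes tested. Leaving out 1 library at a time, these medians spanned -0.0072 to 0.0424 for glycolysis, -0.0328 to 0.0915 for pentose phosphate and -0.0103 to 0.0254 for TCA genes, so none kept its sign. Glycolysis turned negative without LAIR-1-deficient mouse 1, pentose phosphate without LAIR-1-deficient mouse 1, wild type mouse 2 or wild type mouse 3, and TCA without wild type mouse 3.

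**Figure D1:**
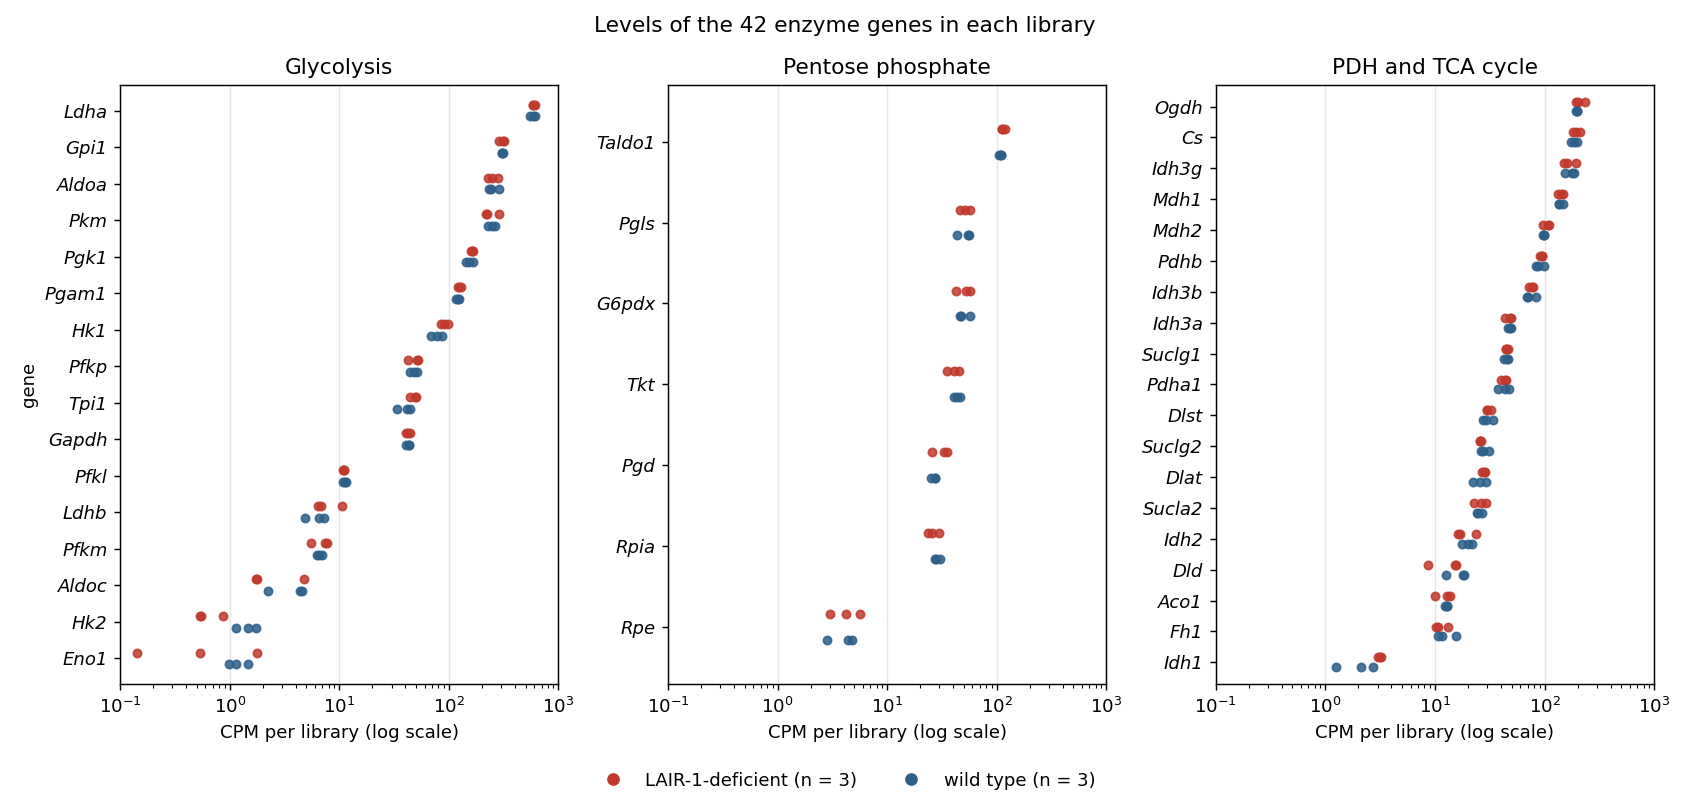
Level of each of the 42 genes in each library, in CPM on a log scale, with genes of a pathway ordered by mean level; red points are the 3 LAIR-1-deficient and blue points the 3 wild type libraries. The genotypes lie over each other for most genes, and the widest spreads are at the low end, at Eno1, Hk2 and Aldoc.

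The first steps of glycolysis trap glucose and commit it to breakdown. Hk1, a hexokinase that phosphorylates glucose, was at 89.7, 98.1 and 84.2 CPM in LAIR-1-deficient mice 1 to 3 and at 68.9, 86.9 and 78.7 CPM in wild type mice 1 to 3. The groups overlapped, since wild type mouse 2 lay above LAIR-1-deficient mouse 3. Hk1 differed by 0.21 on the log2 scale (95% interval -0.02 to 0.45, adjusted p = 0.9999 by edgeR), and by 0.13 with wild type mouse 1, its lowest library, left out.

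Hk2, the inducible hexokinase of growing and activated cells, was at a low level. It had 6, 3 and 4 counts in LAIR-1-deficient and 9, 16 and 13 counts in wild type libraries, or 0.864, 0.533 and 0.546 CPM against 1.13, 1.75 and 1.46 CPM. All LAIR-1-deficient values lay below all wild type values, but Hk2 did not pass the count filter and was not tested. In an unfiltered edgeR fit, added after the counts were seen, its log2 fold change was -1.14 (95% interval -2.53 to 0.25, unadjusted p = 0.107, adjusted p = 0.958).

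Phosphofructokinase catalyses the committing step. Pfkp, its platelet-type subunit, was at 42.8, 51.2 and 52.4 CPM in LAIR-1-deficient and 43.7, 51.6 and 47.6 CPM in wild type cells. Pfkl, the liver-type subunit, was at 10.9 ± 0.116 CPM in LAIR-1-deficient and 11.2 ± 0.307 CPM in wild type cells (SD, n = 3 each). Their log2 fold changes were 0.03 and -0.03. The spread of Pfkl over the 6 libraries was 2.27% of its mean, where counting alone gives about 10.9% at its depth, so the spread was below that of sampling. Pfkm, the muscle-type subunit, was at 6.89 ± 1.21 CPM in LAIR-1-deficient and 6.57 ± 0.306 CPM in wild type cells.

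Tpi1, which interconverts the 2 triose phosphates, had the smallest p of the 42. Its level was 50.5, 44.1 and 48.9 CPM in LAIR-1-deficient and 41.3, 43.9 and 33.3 CPM in wild type mice 1 to 3. The groups touched without overlapping, as LAIR-1-deficient mouse 2 and wild type mouse 2 were almost equal. By edgeR, Tpi1 differed by 0.28 on the log2 scale (SE 0.13, 95% interval 0.0009 to 0.55, unadjusted p = 0.0494, adjusted p = 0.9999). Within mouse numbers, which the labels do not call pairs, the log2 ratio was 0.29, 0.004 and 0.55 for mice 1 to 3. Without wild type mouse 3, the lowest library, the log2 fold change was 0.17.

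Aldolase splits fructose 1,6-bisphosphate. Aldoa, its main form, was at 283, 229 and 248 CPM in LAIR-1-deficient and 288, 245 and 234 CPM in wild type libraries. Aldoc, the form best known from brain, was at 1.73, 4.80 and 1.78 CPM in LAIR-1-deficient and 4.41, 4.59 and 2.24 CPM in wild type libraries. LAIR-1-deficient mouse 2 held the highest Aldoc level of all 6 libraries, so the groups overlapped. Its log2 fold change was -0.47 over all 6 libraries, -1.09 with LAIR-1-deficient mouse 2 left out and -0.11 with both mouse 1 libraries left out. None of these was called.

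The steps from glyceraldehyde 3-phosphate to pyruvate overlapped between genotypes for each tested gene. Gapdh, the dehydrogenase of that substrate, was at 42.4 ± 1.68 CPM in LAIR-1-deficient and 42.5 ± 1.29 CPM in wild type cells. Pgk1 and Pgam1, the kinase and the mutase that follow, had log2 fold changes of 0.07 and 0.04. Gpi1, the isomerase upstream, was at 307 ± 16.1 CPM in LAIR-1-deficient and 308 ± 2.41 CPM in wild type cells. Pkm, the pyruvate kinase of most tissues, was at 287.2, 221.5 and 219.1 CPM in LAIR-1-deficient and 266, 246 and 228 CPM in wild type libraries. The mouse 1 libraries held the highest Pkm level in each genotype, as they did for immediate early genes. The part of those genes in the Pkm level was not tested.

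Lactate dehydrogenase was represented mainly by Ldha. Ldha was at 610, 580 and 591 CPM in LAIR-1-deficient and 611, 584 and 549 CPM in wild type libraries, and its groups overlapped. Its difference was 0.03 on the log2 scale (95% interval -0.15 to 0.21). Ldhb, the heart-type subunit, was at 10.5, 6.75 and 6.42 CPM in LAIR-1-deficient and 7.31, 6.56 and 4.82 CPM in wild type libraries. Its log2 fold change of 0.35 had a 95% interval of -0.20 to 0.89, and leaving out LAIR-1-deficient mouse 1 gave 0.08.

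**Figure D2:**
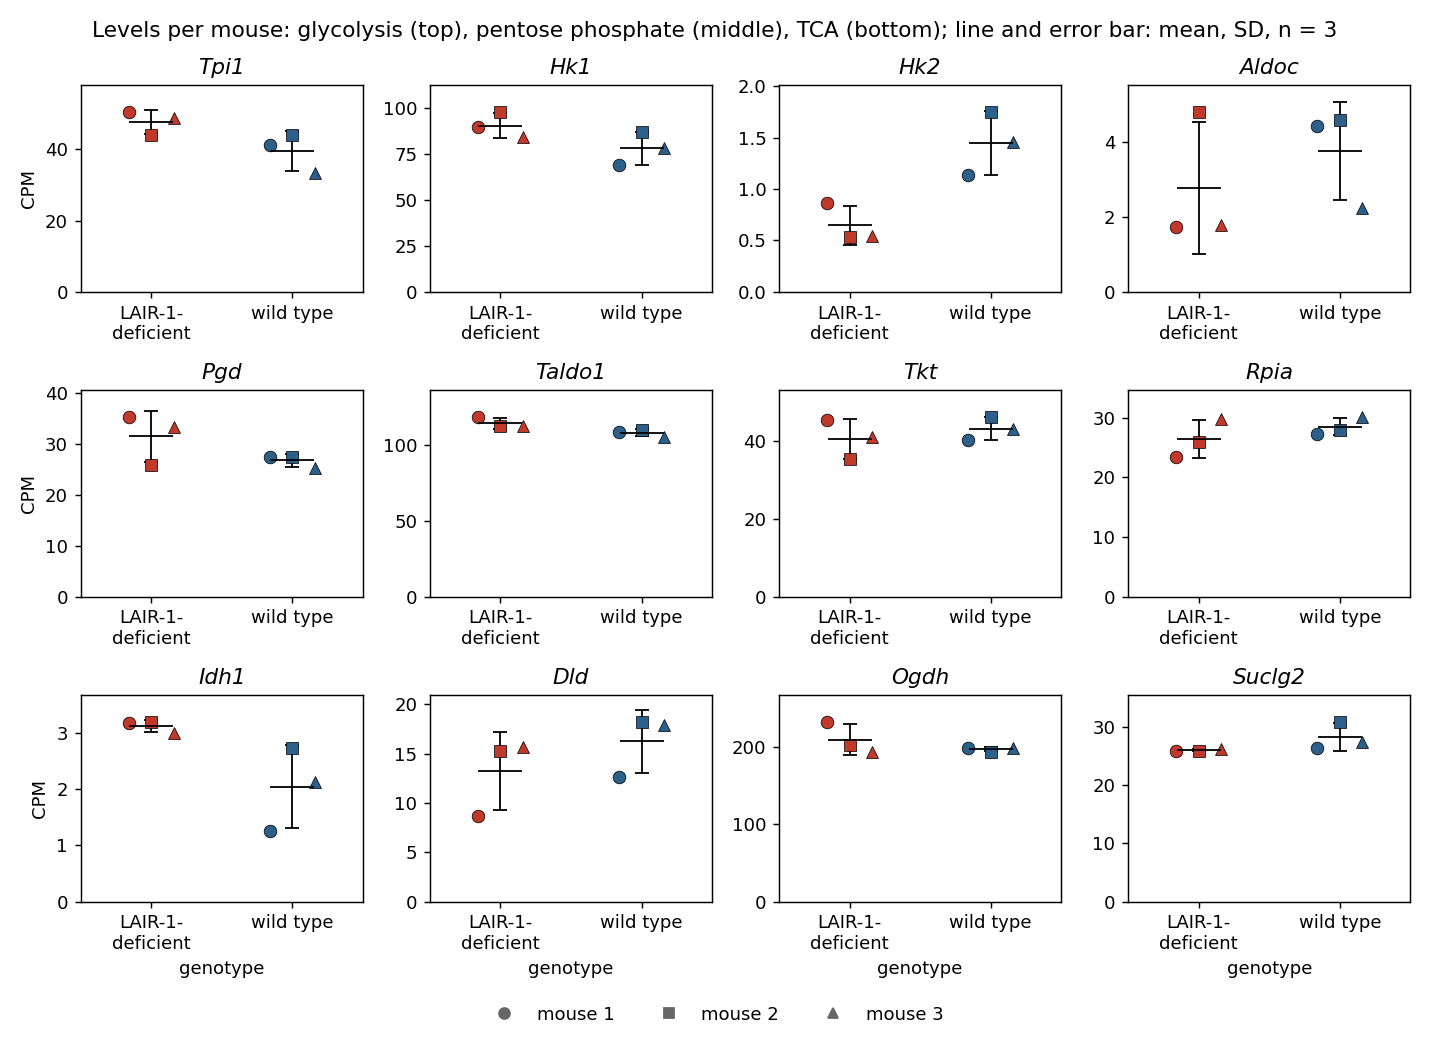
CPM of 12 members in each mouse, with LAIR-1-deficient libraries in red on the left and wild type libraries in blue on the right of each panel; marker shapes give the mouse number, and lines with error bars give mean and SD (n = 3). Tpi1, Taldo1 and Idh1 lie higher and Hk2 and Suclg2 lower in all 3 LAIR-1-deficient libraries; the 4 of these that were tested were not called.

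Oxidative steps open the pentose phosphate pathway. G6pdx, glucose 6-phosphate dehydrogenase and its rate-limiting enzyme, was at 57.6, 42.5 and 52.8 CPM in LAIR-1-deficient and 56.7, 46.7 and 47.5 CPM in wild type libraries. The lowest and the highest value both came from LAIR-1-deficient mice, and the log2 fold change was 0.02 (95% interval -0.26 to 0.30). Pgls, the lactonase that follows, was at 51.7 ± 5.40 CPM in LAIR-1-deficient and 51.0 ± 6.72 CPM in wild type cells.

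Pgd, the second NADPH-producing dehydrogenase, had the smallest p of its pathway. It was at 35.3, 25.8 and 33.3 CPM in LAIR-1-deficient and 27.5, 27.4 and 25.2 CPM in wild type libraries. LAIR-1-deficient mice 1 and 3 lay above all wild type mice and mouse 2 lay within them. The log2 fold change was 0.24 (SE 0.14, 95% interval -0.06 to 0.54, unadjusted p = 0.106 by edgeR), and 0.15 with LAIR-1-deficient mouse 1 left out.

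The non-oxidative branch rearranges sugar phosphates. Taldo1, transaldolase, was at 118.8, 112.4 and 112.6 CPM in LAIR-1-deficient and 108.7, 110.3 and 105.5 CPM in wild type libraries. All LAIR-1-deficient values lay above all wild type values, with a log2 fold change of only 0.08 (95% interval -0.12 to 0.28). Tkt, transketolase, was at 45.63, 35.35 and 41.10 CPM in LAIR-1-deficient and 40.4, 46.3 and 43.1 CPM in wild type libraries, a log2 fold change of -0.09. Rpia, the ribose 5-phosphate isomerase, was at 23.5, 25.9 and 29.8 CPM in LAIR-1-deficient and 27.3, 28.0 and 30.1 CPM in wild type libraries, a log2 fold change of -0.11 that was -0.0328 with LAIR-1-deficient mouse 1 left out. Rpe, the epimerase, had 21 to 32 counts in LAIR-1-deficient and 26 to 39 counts in wild type libraries, and its 95% interval of -0.60 to 0.80 was the widest of the pathway.

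The pyruvate dehydrogenase complex links glycolysis to the cycle. Pdha1, its catalytic alpha subunit, was at 43.76, 39.97 and 44.24 CPM in LAIR-1-deficient and 37.9, 43.3 and 47.5 CPM in wild type libraries. Pdhb, the beta subunit, was at 93.8 ± 2.33 CPM in LAIR-1-deficient and 89.8 ± 7.84 CPM in wild type cells. Dlat, the acetyltransferase core, was at 28.0 ± 0.883 CPM in LAIR-1-deficient and 25.6 ± 3.45 CPM in wild type cells. Dld, the dihydrolipoamide dehydrogenase shared with the oxoglutarate dehydrogenase complex, was at 8.64, 15.3 and 15.7 CPM in LAIR-1-deficient and 12.6, 18.3 and 17.9 CPM in wild type libraries. Mouse 1 held the lowest Dld level in both genotypes. The Dld difference was -0.31 on the log2 scale (95% interval -0.78 to 0.16), and leaving out LAIR-1-deficient mouse 1 gave -0.08.

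Within the cycle, the committing enzymes overlapped between genotypes. Cs, citrate synthase, was at 209, 180 and 195 CPM in LAIR-1-deficient and 185, 197 and 173 CPM in wild type libraries. Idh3a, the catalytic subunit of the NAD-dependent isocitrate dehydrogenase, was at 43.5, 49.0 and 47.9 CPM in LAIR-1-deficient and 46.0, 49.4 and 48.3 CPM in wild type libraries. Ogdh, the first subunit of the oxoglutarate dehydrogenase complex, was at 232.5, 202.2 and 193.2 CPM in LAIR-1-deficient and 198, 194 and 198 CPM in wild type libraries. Log2 fold changes were 0.07 for Cs, -0.03 for Idh3a and 0.09 for Ogdh. LAIR-1-deficient mouse 1 held the highest level of both Cs and Ogdh, and with it left out the values were 0.0175 for Cs and 0.0028 for Ogdh.

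Suclg2 and Idh1 were the TCA genes without overlap between groups. Suclg2, the GTP-specific beta subunit of succinyl-CoA synthetase, was at 25.91, 25.94 and 26.22 CPM in LAIR-1-deficient and 26.45, 30.93 and 27.34 CPM in wild type libraries. The gap between the groups was far smaller than the range within wild type, and the log2 fold change was -0.12 (95% interval -0.40 to 0.16), or -0.048 with wild type mouse 2 left out. Idh1, the cytosolic NADP-dependent isocitrate dehydrogenase, had 22, 18 and 22 counts in LAIR-1-deficient and 10, 25 and 19 counts in wild type libraries, or 3.17, 3.20 and 3.00 CPM against 1.26, 2.73 and 2.13 CPM. Its log2 fold change of 0.60 was the largest positive one of the 40, with a 95% interval of -0.23 to 1.43, and was 0.36 without wild type mouse 1. Over all 40 tested members, 3 lay higher without overlap (Tpi1, Taldo1, Idh1) and 1 lay lower (Suclg2), where 4.3% and 4.08% of all genes tested did, or 8.37% in either direction.

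The other cycle enzymes were close between genotypes. Mdh1 and Mdh2, the cytosolic and mitochondrial malate dehydrogenases, had log2 fold changes of 0.01 and 0.08. Fh1, fumarase, was at 11.3 ± 1.67 CPM in LAIR-1-deficient and 12.6 ± 2.54 CPM in wild type cells. Aco1, the cytosolic aconitase that also acts as an iron-responsive RNA-binding protein, was at 12.2 ± 1.90 CPM in LAIR-1-deficient and 12.7 ± 0.338 CPM in wild type cells. Log2 fold changes of Idh2, Idh3b, Idh3g, Dlst, Suclg1 and Sucla2 lay between -0.07 and 0.04.

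**Figure D3:**
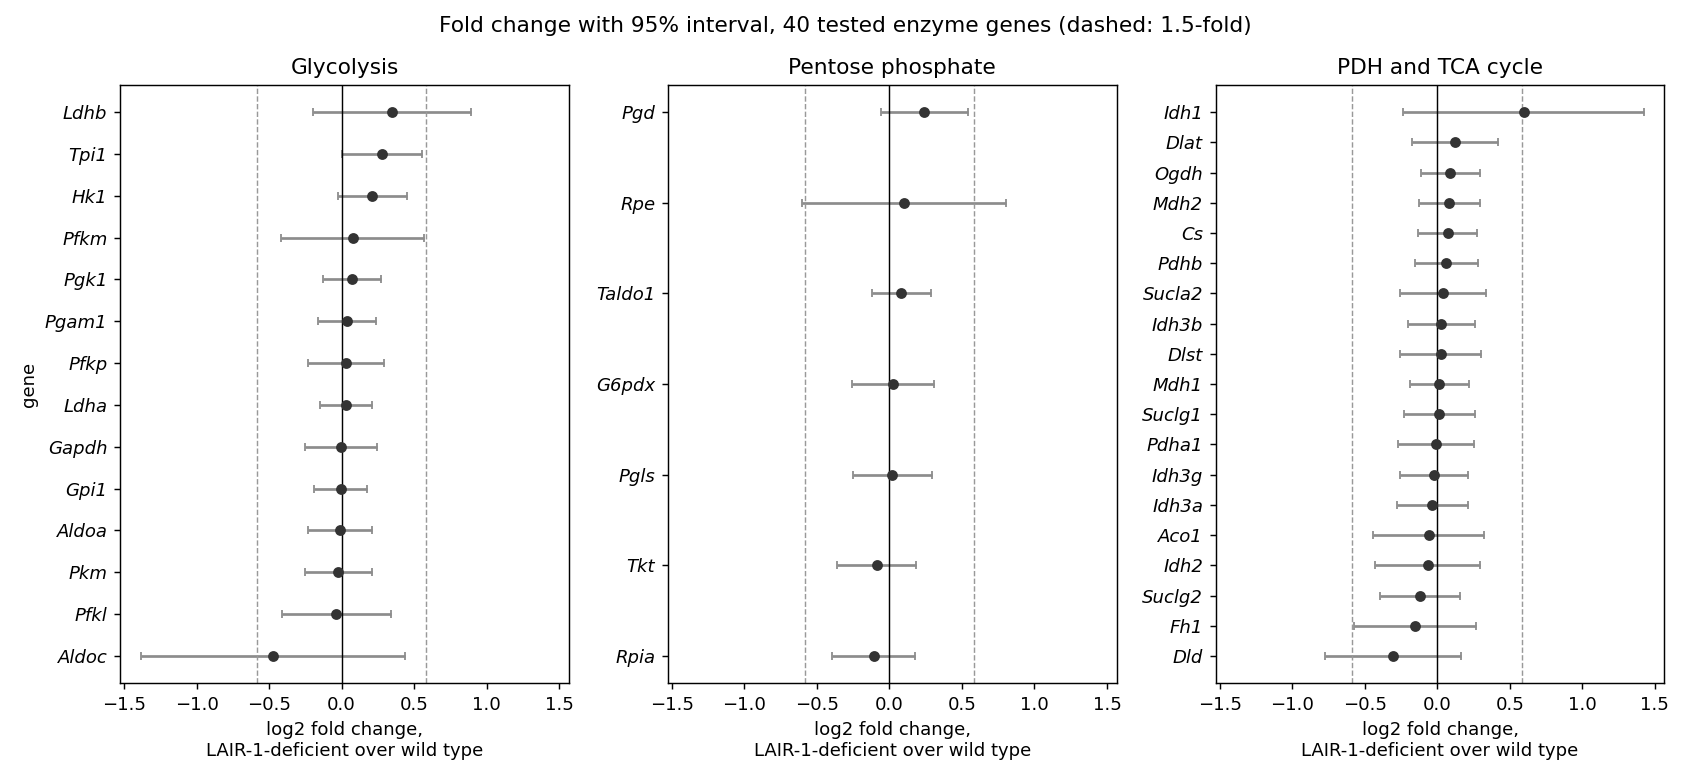
Log2 fold change, LAIR-1-deficient over wild type, of the 40 tested members with 95% intervals from edgeR; the solid line marks no change and dashed lines 1.5-fold. All intervals except that of Tpi1 include 0, and those of Aldoc, Ldhb, Rpe, Idh1 and Dld reach past 1.5-fold.

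The 95% interval lay within 1.5-fold in both directions for 35 of 40 members, 12 of 14 in glycolysis, 6 of 7 in the pentose phosphate pathway and 17 of 19 in the TCA list. Over all genes tested this share was 63.2%. It lay within 2-fold for 38 of 40 members, against 85.9% of all genes, with Aldoc and Idh1 as the exceptions. Members were also more abundant, with a median level of 44.3 CPM against 19.8 CPM for all genes tested.

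Summed over its members, each pathway was within a few percent between genotypes. Glycolysis genes summed to 2042, 1869 and 1913 CPM in LAIR-1-deficient and 1993, 1906 and 1814 CPM in wild type mice 1 to 3. Pentose phosphate genes summed to 341, 294 and 325 CPM in LAIR-1-deficient and 321, 316 and 299 CPM in wild type mice. TCA genes summed to 1350, 1250 and 1278 CPM in LAIR-1-deficient and 1246, 1312 and 1236 CPM in wild type mice. The ratio of group means was 1.02 for glycolysis, 1.03 for pentose phosphate and 1.02 for TCA genes, and the groups overlapped in each. Such sums follow their most abundant genes. In glycolysis Ldha weighed most, with a mean of 587 CPM over the 6 libraries. Ldha, Gpi1 and Pkm are also among the genes with near copies, described below, whose levels are uncertain.

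LAIR-1-deficient mouse 1 held the highest and mouse 2 the lowest sum of that genotype in all 3 pathways, and mouse 2 was also its shallowest library. Mouse numbers are not said in the labels to pair the mice, so ratios within a number are description only. For numbers 1 to 3, the log2 ratio of the sums was 0.04, -0.03 and 0.08 for glycolysis. It was 0.09, -0.10 and 0.12 for pentose phosphate and 0.12, -0.07 and 0.05 for TCA genes. In each pathway this ratio was positive for numbers 1 and 3 and negative for number 2. With LAIR-1-deficient mouse 1 left out, an alternative added after the values were seen, the log2 ratio of mean sums was -0.01 for glycolysis, -0.01 for pentose phosphate and -0.005 for TCA genes. The part of immediate early genes, which were high in mouse 1 of both genotypes, was not tested.

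**Figure D4:**
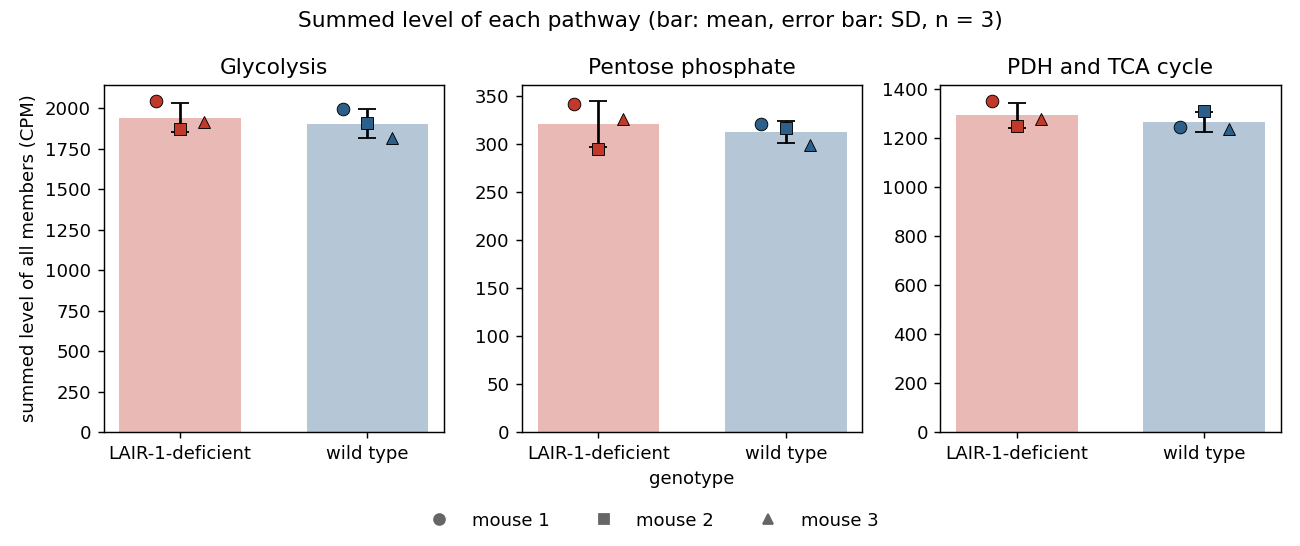
Summed CPM of all members of each pathway, with bars for the mean and error bars for the SD of 3 LAIR-1-deficient (left) and 3 wild type libraries (right), and marker shapes for mouse number. Group means differ by less than the SD within groups in all 3 pathways.

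The hexokinase and lactate dehydrogenase isozymes stood far apart in level. Levels of different genes are compared here as CPM per kilobase of the longest principal transcript, a scale that assumes reads spread along the transcript, which the sources used here do not state. Hk1 was at 21.9 to 25.5 CPM per kilobase in LAIR-1-deficient and 17.9 to 22.6 in wild type libraries, and Hk2 at 0.0967 to 0.157 in LAIR-1-deficient and 0.206 to 0.317 in wild type libraries. Ldha spanned 328 to 345 CPM per kilobase in LAIR-1-deficient and 311 to 346 in wild type libraries, where Ldhb spanned 4.92 to 8.06 in LAIR-1-deficient and 3.69 to 5.60 in wild type libraries. These ranges leave a wide gap between the isozymes in every library.

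The aldolase, phosphofructokinase and isocitrate dehydrogenase families each kept 1 order in all 6 libraries. Aldoa was at 168 ± 18.0 CPM per kilobase in LAIR-1-deficient and 169 ± 19.1 in wild type cells, and Aldoc at 0.993 ± 0.631 in LAIR-1-deficient and 1.34 ± 0.469 in wild type cells (SD, n = 3 each). Pfkp, at 11.8 ± 1.27 CPM per kilobase in LAIR-1-deficient and 11.5 ± 0.949 in wild type cells, lay above Pfkl, at 2.93 ± 0.0301 in LAIR-1-deficient and 3.00 ± 0.0829 in wild type cells. Pfkl in turn lay above Pfkm, at 2.39 ± 0.420 CPM per kilobase in LAIR-1-deficient and 2.28 ± 0.106 in wild type cells. Mitochondrial Idh2 was at 10.8 ± 2.34 CPM per kilobase in LAIR-1-deficient and 11.4 ± 1.18 in wild type cells, and cytosolic Idh1 at 1.36 ± 0.0453 in LAIR-1-deficient and 0.886 ± 0.321 in wild type cells. Among subunits of NAD-dependent isocitrate dehydrogenase the order per kilobase was Idh3g, Idh3b and Idh3a. Suclg1 lay above the nucleotide-specific subunits Sucla2 and Suclg2 in every library. Per kilobase Sucla2 lay above Suclg2 in every library, but their order depends on dividing by length, since in plain CPM Suclg2 spanned 25.91 to 30.93 and Sucla2 22.75 to 28.95. The same holds for Mdh1 and Mdh2, which overlapped per kilobase (63.0 to 70.1 and 65.9 to 75.8 over the 6 libraries) but not in plain CPM (133.6 to 148.7 and 95.93 to 110.3).

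Several members share near-identical stretches with other annotated genes, and how reads shared with them were assigned is not given in the sources used here. Such a stretch need not be a copy of the whole gene. At 95% identity over at least 100 bases, 15 of the 42 members matched another annotated gene. Gapdh matched 81, of which 76 are annotated as pseudogenes, Ldha 5, Pgk1 4 and Eno1 3. Gpi1, Pkm, Pfkp, Tpi1, Pgam1, Ldhb, G6pdx, Rpe, Pdhb, Pdha1 and Suclg2 matched 1 to 5 genes. The levels of all 15 are therefore uncertain. Eno1, the enolase of most tissues, had 1, 3 and 13 counts in LAIR-1-deficient and 9, 9 and 13 counts in wild type libraries, far below its neighbours in the pathway, and was not tested. In the unfiltered edgeR fit its log2 fold change was -0.51 (95% interval -1.88 to 0.87, adjusted p = 0.966).

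Genes around the 3 pathways, listed with earlier results of these data known, were not called either. Of 66 listed genes, 56 were in the table and 46 were tested, and edgeR called 0 higher and 0 lower (0 at an unadjusted p under 0.05). Their median log2 fold change was 0.02, with 27 positive and 19 negative. Among transport genes, Slc2a1, a glucose transporter, had a log2 fold change of 0.09, and Bsg, a chaperone of lactate transporters, was at 100.4 ± 5.02 CPM in LAIR-1-deficient and 86.7 ± 16.5 CPM in wild type cells. The phosphoglucomutase family genes that the count table names Pgm1 (on chromosome 5) and Pgm2 (on chromosome 4) had log2 fold changes of 0.20 and -0.10. On the pentose phosphate side, H6pd, the dehydrogenase of the endoplasmic reticulum, and Prps1, which makes phosphoribosyl pyrophosphate, had 0.09 and -0.08.

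Genes of pyruvate entry, the cycle and their regulators had small fold changes as well. Mpc2, a subunit of the mitochondrial pyruvate carrier, was at 31.4, 30.9 and 24.9 CPM in LAIR-1-deficient and 36.4, 31.7 and 31.2 CPM in wild type libraries, a log2 fold change of -0.19. Pdp2, a pyruvate dehydrogenase phosphatase, had -0.24. Sdha, a catalytic subunit of succinate dehydrogenase, was at 185, 184 and 190 CPM in LAIR-1-deficient and 138, 162 and 186 CPM in wild type libraries, and its log2 fold change of 0.20 had the smallest unadjusted p of these genes (0.0789). The regulators Hif1a, which encodes the oxygen-sensitive HIF-1 subunit, and Mlx, a partner of glucose-sensing factors, had 0.16 and 0.18.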

How the data were processed

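Per the file headers, the deposited table gives each library a column of counts; they are whole and unscaled. Per the submitters' processing notes, BWA and the genome build mm10 were used. The annotation, the counter, strandedness and any UMIs: not given in the sources used here, so overlapping and near-identical genes cannot be told apart. Per the labels' protocols, TRIzol-extracted RNA was made into libraries with small RNA primers. Columns were matched by sample description and groups by title. The labels call the samples separate mice, and no 2 libraries agreed within sampling noise (chi-square per gene 5.39 to 26.1 over genes with at least 50 counts in sum).

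The test was that of edgeR 4.0.16 (R 4.3.3): filterByExpr with a smallest count of 10, TMM scaling, a robust quasi-likelihood F test without covariate, two-sided, and Benjamini-Hochberg adjustment over 9565 genes with a threshold of 0.05. SEs and 95% intervals came from the fold change and F statistic. CPM are counts over total times TMM factor. Alternatives were RLE and total scaling, other count filters, DESeq2 1.42.0, limma-voom (limma 3.58.1), mouse number as a block and left-out libraries. Scripts were tested on simulated data. Coordinates and lengths are from GENCODE vM21 (GRCm38), which matched all 42 members, 1 of them (Aldoa) by overlap with RefSeq because 2 genes share its symbol. Near copies were found with BLAST 2.17.0 among annotated transcripts. 4 spike-in rows were left out.

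Members and lists were chosen with earlier results of these data known. Named genes are, per pathway, the 4 with the smallest p, those whose groups do not overlap and the committing enzymes; of the surrounding genes, the 2 with the smallest p per sub-list, of which 1 gene is not reported here. Other members and markers are described to account for the lists. Intervals and limits cover counting and replicate error only.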

Additional observations from a re-analysis of the deposited data

Results flagged for a closer look

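The 4 spike-in rows of the table, which no comparison used and no label explains, had 0 to 4 counts per library. In wild type mouse 2, the deepest library, the 4 rows summed to 4 counts, where a count of 0 allows up to 3. A sum this small does not by itself mark the library as unusual.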

How the results depend on the processing

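No member was called under any alternative run, and the 3 pathway medians each changed sign when 1 library was left out, by less than the spread between mice. Of the 20 tested named members, 13 had one sign throughout. Many of the 20 were chosen from these same data for a small p or for groups without overlap. That choice favours a stable sign, so the count does not measure how stable directions are. Without a count filter, edgeR called 1 gene higher (Bcl9l) and 2 lower (Prdm16, Lair1). The count called lower was 0 with a smallest count of 30 (Lair1 is then not tested), with limma-voom (302 genes at an unadjusted p under 0.05) and without mouse 1 of both groups. Leaving out 1 library each gave 0 to 1 called higher and 0 to 2 called lower (without LAIR-1-deficient mouse 2 also Tcf7l1). These genes were chosen after their values were seen. The adjusted p of Lair1 was 0.0712 without mouse 1 of both groups. With library totals the log2 fold change of Pdha1 was 0.001. Over the fits without 1 library, log2 fold changes spanned -0.18 to 0.0011 for Tkt, -0.0255 to 0.12 for Pfkp, -0.17 to 0.0449 for Pkm, -0.0112 to 0.0674 for Ldha, -0.0755 to 0.14 for G6pdx, -0.0881 to 0.0701 for Pdha1 and -0.0675 to 0.0125 for Idh3a; the cause was not tested.

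The labels do not say that mouse numbers pair the mice. Deviations of same-numbered mice correlated by 0.29 for mouse 1, 0.009 for mouse 2 and 0.065 for mouse 3. LAIR-1-deficient mouse 1 correlated best with its own number, a hint from the data, and the others did not. LAIR-1-deficient mouse 2 correlated best with wild type mouse 3 (0.184), and LAIR-1-deficient mouse 3 with wild type mouse 2 (0.093). For mice 2 and 3, the block and the ratios within a number therefore do not join the libraries that correlated best. With mouse number as a replicate block edgeR called 0 genes higher and 1 lower (Lair1), and 449 genes reached an unadjusted p under 0.05, against 311 without the block. At the depth of these libraries, Hk2 and Eno1 (1 to 16 counts) could not be compared reliably.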
